A study of Mus musculus with 3 samples.

Results

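Some H3K4me3 peaks of mouse suprabasal keratinocytes hold the ends, starts or finishes, of neighbouring genes. They were taken as the H3K4me3 peaks narrower than 4500 bp that contain an end of at least 2 protein-coding genes whose spans do not overlap each other, and are called shared peaks here. In all, 965 of the 16735 H3K4me3 peaks met this rule. They are set against the 8768 peaks under the same width that hold ends of exactly 1 protein-coding gene, called single-gene peaks. Peak width and gene positions chose the members, so the number of members, their widths and their genes are a description, while the DLX3 peak list was not used in the choice.

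Chromatin immunoprecipitation followed by sequencing was carried out on suprabasal keratinocytes, epidermal cells that have left the basal layer and are differentiating, with anti-Dlx3 and anti-H3K4me3 antibodies and with IgG, 1 library each. All cells came from wild type BALB/c mice without treatment named in the labels. The sample labels call the mice adult, whereas the series text speaks of neonatal epidermis and of cells taken by Percoll gradient, and the age is not settled here. Both peak lists mention IgG in their names, no source used here states its role in the calling, and the IgG library itself is not analysed here. With 1 library per antibody there is no replicate, so the intervals below are 95% intervals that cover counting error only, and no p-value is given.

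H3K4me3, trimethylation of lysine 4 on histone H3, marks the starts of active genes and of many poised ones. Where 2 genes start close together and are read in opposite directions, a single nucleosome-free stretch between them can act as a bidirectional promoter; in mammals such promoters are typically rich in CpG and frequent among housekeeping genes such as those for DNA repair and mitochondrial proteins. DLX3 is a homeodomain transcription factor of the differentiating layers of the epidermis, of hair and of teeth, and binds A/T-rich DNA motifs built around TAAT.

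The stretch that lies between the starts of a divergent gene pair is the shortest piece of DNA that both genes can share, and it is shown for 4 pairs among the 10 whose peaks met the highest-scoring DLX3 peaks. Sequences are from RefSeq promoters of GRCm38.p6 (mm10) and are given 5′ to 3′ on the plus strand, so the gene named first is read leftwards from the left end and the gene named second rightwards from the right end. Capitals mark matches on either strand to any of 10 short motifs: TATAAA (the TATA box), CCAAT (the core of NF-Y sites), GGGCGG (the GC box of Sp-family factors), GCGCATGC (part of the NRF1 site), TGACGTCA (the cAMP response element), CCGGAAG (a core of ETS-family sites), TGANTCA (the AP-1 site), TAATTA and TAATTG (homeodomain cores) and CTCGCGAG. Matches that overlap run together in the capitals.
S100pbp/Yars, chr4:129189666-129189733: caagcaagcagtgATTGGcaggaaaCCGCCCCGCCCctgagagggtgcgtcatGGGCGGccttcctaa
Polh/Xpo5, chr17:46202642-46202810: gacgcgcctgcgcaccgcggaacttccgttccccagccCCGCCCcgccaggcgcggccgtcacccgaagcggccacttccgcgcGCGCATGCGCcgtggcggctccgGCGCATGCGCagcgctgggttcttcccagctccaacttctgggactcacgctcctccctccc
Ccdc92/Zfp664, chr5:124862500-124862704: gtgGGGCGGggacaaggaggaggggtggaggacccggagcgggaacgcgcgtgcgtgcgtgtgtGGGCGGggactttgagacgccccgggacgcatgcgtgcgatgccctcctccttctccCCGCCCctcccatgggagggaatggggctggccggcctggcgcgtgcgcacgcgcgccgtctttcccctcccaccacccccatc
Nsun6/Arl5b, chr2:15055145-15055251: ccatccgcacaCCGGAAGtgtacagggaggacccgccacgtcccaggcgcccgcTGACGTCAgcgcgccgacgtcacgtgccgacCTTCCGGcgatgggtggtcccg
S100pbp encodes a binding partner of an S100 calcium-binding protein and Yars the tyrosyl-tRNA synthetase. Their 68 bases hold GC boxes and 1 CCAAT. Polh encodes the translesion DNA polymerase eta and Xpo5 the exportin that carries microRNA precursors out of the nucleus. Nsun6 encodes an RNA cytosine methyltransferase and Arl5b a small GTPase. None of these 4 stretches holds TAATTA or TAATTG, which says only that these letters are not in these windows. The DLX3 peak covers each stretch and extends beyond it, and only at Ccdc92/Zfp664 does its centre lie inside the stretch.

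Next come the stretches of a pair of textbook head-to-head gene pairs that are members. Atm encodes the kinase that signals DNA double-strand breaks and Npat a coactivator of histone gene transcription, and Mrps12 encodes a mitochondrial ribosomal protein and Sars2 the mitochondrial seryl-tRNA synthetase.
Atm/Npat, chr9:53536829-53536888: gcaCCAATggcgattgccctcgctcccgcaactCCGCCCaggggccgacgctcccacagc
Mrps12/Sars2, chr7:28741822-28741956: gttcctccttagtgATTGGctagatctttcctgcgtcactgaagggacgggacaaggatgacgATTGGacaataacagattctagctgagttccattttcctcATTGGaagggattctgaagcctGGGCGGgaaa
Stretches between replication-dependent histone genes are shown because CCAAT recurs in them, with 5 matches at H2ac11/H2bc11 and 3 at H2ac15/H2bc15. The Mrps12/Sars2 stretch above also holds 3. Over the 289 stretches of 40 to 300 bases that were read between divergent starts at shared peaks, 112 (38.8%) held at least 1 CCAAT.
H2ac11/H2bc11, chr13:22042950-22043197: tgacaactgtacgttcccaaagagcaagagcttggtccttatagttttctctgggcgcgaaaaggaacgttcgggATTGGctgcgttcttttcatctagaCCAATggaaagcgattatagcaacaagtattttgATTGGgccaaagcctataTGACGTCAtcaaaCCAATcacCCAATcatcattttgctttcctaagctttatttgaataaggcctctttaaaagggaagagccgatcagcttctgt
H2ac15/H2bc15, chr13:21753913-21754075: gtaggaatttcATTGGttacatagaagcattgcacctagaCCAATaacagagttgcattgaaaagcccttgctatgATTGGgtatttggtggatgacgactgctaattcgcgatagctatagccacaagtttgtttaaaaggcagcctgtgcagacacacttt
The loci shown were picked from the named pairs and the fixed gene lists after their values were seen.

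**Figure D1:**
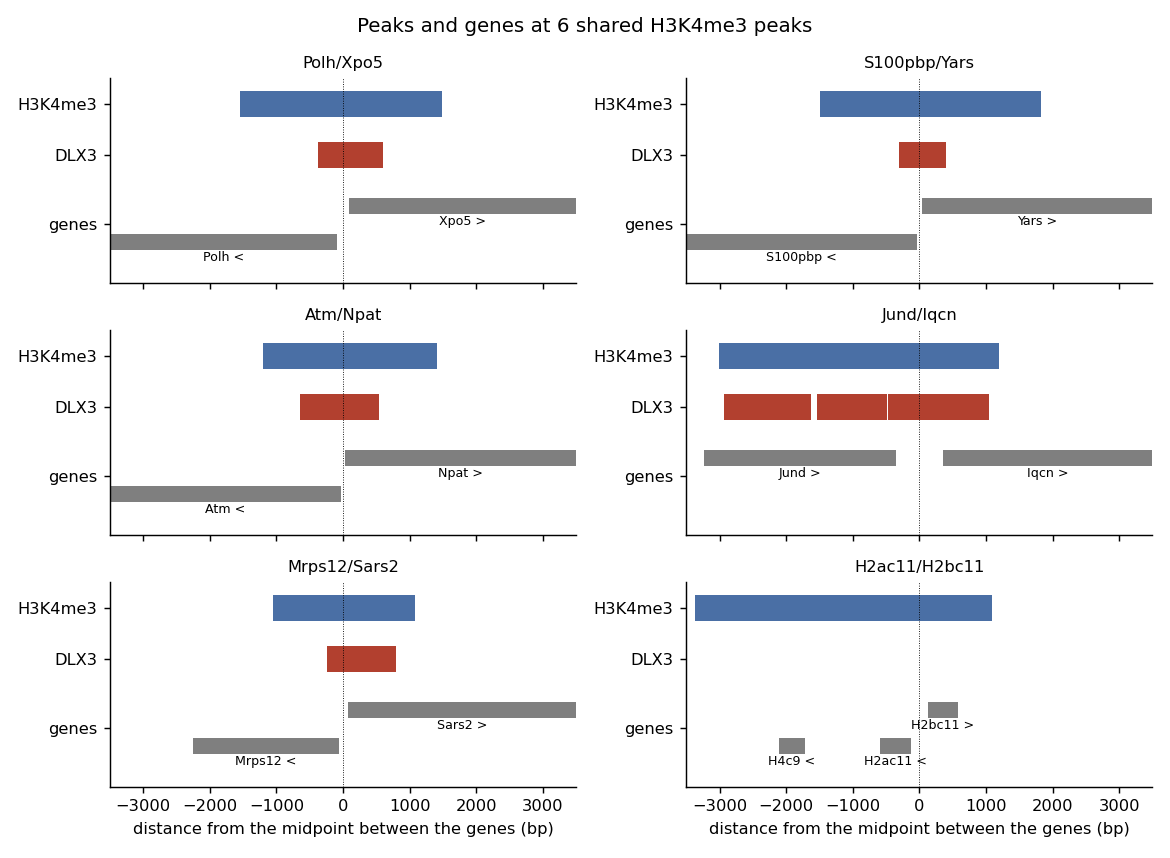
H3K4me3 peaks (blue), DLX3 peaks (red) and genes (grey, arrowheads give the direction of reading) at 6 shared peaks, drawn to scale in bp from the midpoint between the inner ends of the closest gene pair, with genes cut at the panel edge. At Polh/Xpo5, S100pbp/Yars, Atm/Npat and Mrps12/Sars2 a DLX3 peak covers both starts; at Jund/Iqcn 3 DLX3 peaks lie along the H3K4me3 peak, and at H2ac11/H2bc11 there is none.

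The lists held 18087 DLX3 peaks and 16735 H3K4me3 peaks, and the score attached to each peak is the authors'. Its range, 50 to 3233.06 for H3K4me3 with 766 peaks at exactly 3100, has the form of the MACS 1.4 score, which is −log10 of the p-value times 10, and it is used only within a list. Reads per library are not given, so the depth is unknown. Of the keratinocyte markers, 13 of 14 had an H3K4me3 peak within 1000 bp of a gene end, with Flg (filaggrin) the exception. The top scores of the 13 ran from 76.82 at Ivl and 377.61 at Krt1 to 3100 at Perp. Of the markers of other cells, 2 of 5 for melanocytes (Pmel, score 2282.68, and Dct, 66.05), 0 of 6 for immune cells, 1 of 4 for endothelium (Kdr, score 328.62) and 4 of 6 for fibroblasts had one, the fibroblast peaks scoring 78.7 to 476.21. Whether other cells contributed to the shared peaks was not tested. A position in both lists does not tell whether the same cell carried both.

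Of the 965 shared peaks, 931 held 2 protein-coding genes, 33 held 3 and 1 held 4. They touched 1904 genes, 16.7% of the 11380 protein-coding genes with an end in any H3K4me3 peak under 4500 bp. Chromosomes 7, 11 and 17 had the most shared peaks, with 98, 83 and 74, counts that were not set against the genes or peaks of each chromosome. The gap between the inner ends of the closest gene pair had a median of 152 bases (quartiles 62 and 337), and it reached 3761 bases at Phb2/Ptpn6. Beside the members, 489 peaks under the ceiling held several genes whose spans all overlap, 5689 held no protein-coding end, and 82 peaks of 4500 bp or more met the gene rule. Just inside the ceiling stood, among others, Btf3l4/Txndc12 at 4455 bp. Just outside stood Nfya/Oard1 and Tmem69/Gpbp1l1, each 4553 bp wide, and Erp29/Tmem116 at 4569 bp.

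Most shared peaks sat between genes that start back to back. The strand of both genes of the closest pair was known for 747 of the 965 shared peaks. Of these pairs 516 were divergent (69.1%, Wilson interval 65.7% to 72.3%), meaning that the starts are next to each other and the genes are read in opposite directions. A further 215 were tandem (28.8%, 25.7% to 32.1%), with the finish of 1 gene beside the start of the next, and 16 were convergent (2.14%, 1.32% to 3.45%), with 2 finishes facing each other. For comparison, all 2099 neighbouring protein-coding pairs of known strand that lie under 2000 bp apart were 29.7% divergent, 38.6% tandem and 31.7% convergent. Read the other way, 512 of 624 such divergent neighbours (82.1%, 78.8% to 84.9%) lay in a shared peak, against 212 of 810 tandem (26.2%, 23.3% to 29.3%) and 17 of 665 convergent neighbours (2.56%, 1.6% to 4.06%). Gaps were short in divergent pairs, with a median of 99 bases, against 369 bases in tandem pairs.

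**Figure D2:**
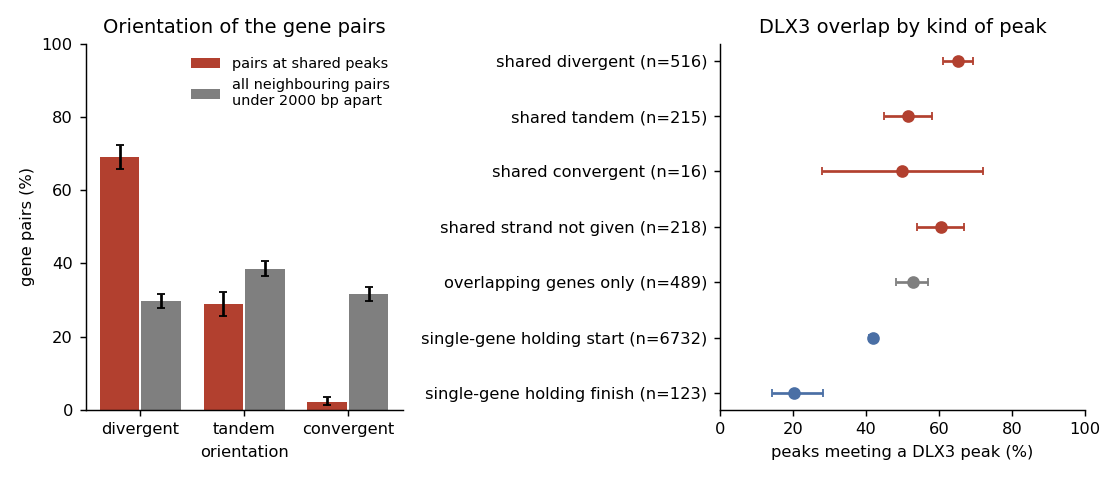
Left, the percentage of gene pairs in each orientation at shared peaks with both strands known (red, n = 747) and among all neighbouring protein-coding pairs under 2000 bp apart (grey, n = 2099). Right, the percentage of H3K4me3 peaks that meet a DLX3 peak, by kind of peak; error bars in both panels are 95% Wilson intervals for counting error, and divergent peaks, at 65.3%, stand above the single-gene peaks that hold a start, at 41.9%.

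Shared peaks were wide and scored high. Their width had a median of 2666 bp (quartiles 2194 and 3268), against 2193 bp (1739 and 2790) in single-gene peaks, and width was part of the rule. Their H3K4me3 score had a median of 1699.63 (quartiles 1047.75 and 2343.1), against 1066.52 (505.43 and 1704.89) in single-gene peaks. A score of 3100 or more was found in 84 of 965 shared peaks (8.7%) and in 342 of 8768 single-gene peaks (3.9%). Peaks whose genes all overlap were close to the shared ones, with a median width of 2604 bp and a median score of 1670.53. Among the shared peaks, divergent pairs had the higher scores, with a median score of 1957.92 and a median width of 2755 bp, against 1129.72 and 2318 bp in tandem pairs. The medians of tandem peaks were near those of single-gene peaks that hold a start, which were a score of 1098.8 and a width of 2199 bp. These are descriptions of the peaks that the rule selected.

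DLX3 lay at shared peaks more often than at single-gene peaks. A DLX3 peak shared at least 1 bp with 588 of the 965 shared peaks (60.9%, Wilson interval 57.8% to 64.0%), against 3569 of the 8768 single-gene peaks (40.7%, 39.7% to 41.7%). The share was 40.7% over all H3K4me3 peaks and 38.9% over those under 4500 bp. The difference between shared and single-gene peaks was 20.2 percentage points (Newcombe interval 16.9 to 23.4). Peaks with overlapping genes only stood between them at 52.8% (48.3% to 57.1%), and shared peaks exceeded them by 8.17 points (2.79 to 13.5). Peaks with no protein-coding end met DLX3 in 31.2% of cases.

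A wider peak meets another peak more easily, and the shared peaks were wider. At the widths of the shared peaks, single-gene peaks met DLX3 in 48.4% of cases, and the difference that remained was 12.5 points (9.29 to 15.7), with a Mantel-Haenszel odds ratio of 1.71 (1.49 to 1.97). The share was higher in shared peaks in 10 of 10 width classes. In the narrowest class, 917 to 1826 bp, it was 38.1% in shared peaks and 21.6% in single-gene peaks. In the widest, 3824 to 4475 bp, it was 69.1% in shared peaks and 63.7% in single-gene peaks, and these intervals overlapped. At 4500 bp and above, 63 of 82 peaks with neighbouring genes (76.8%) met DLX3, against 435 of 561 single-gene peaks (77.5%). The H3K4me3 score moved with the difference as well: with classes of equal score in place of width the difference was 8.0 points (4.89 to 11.1), and without classes it was 11.3 points (7.71 to 14.7) among H3K4me3 peaks at or above the median score. Counting only DLX3 peaks at or above the median DLX3 score gave 8.04 points (4.84 to 11.2) at equal width.

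**Figure D3:**
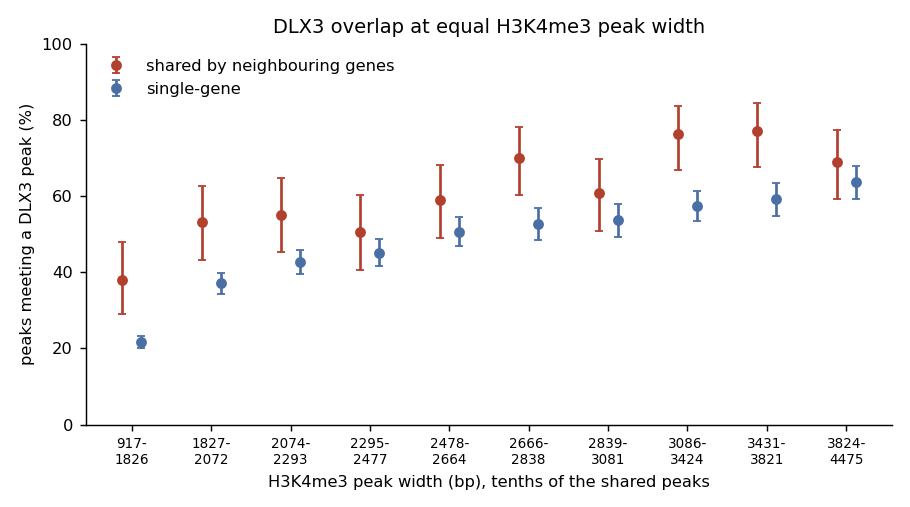
Percentage of H3K4me3 peaks that meet a DLX3 peak in each of 10 width classes (bp) that hold about equal numbers of shared peaks, for shared peaks (red) and single-gene peaks (blue); error bars are 95% Wilson intervals for counting error. The red point lies above the blue in 10 of 10 classes, from 38.1% and 21.6% in the narrowest to 69.1% and 63.7% in the widest. Class limits are the widths of shared peaks, and the outer classes also hold single-gene peaks beyond those limits.

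When shared peaks met DLX3, the DLX3 peak was much like that at single-gene peaks. Its score had a median of 98.15 in shared peaks (quartiles 73.6 and 142.77) and 93.19 in single-gene peaks (69.28 and 139.48). At least 2 DLX3 peaks were present in 26 of 588 shared peaks with any (4.42%, 3.04% to 6.4%) and in 208 of 3569 single-gene peaks with any (5.83%, 5.11% to 6.65%). The highest DLX3 score was 571.98 in shared peaks and 2523.19 in single-gene peaks.

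By orientation, DLX3 met 337 of 516 divergent peaks (65.3%, 61.1% to 69.3%) and 111 of 215 tandem peaks (51.6%, 45.0% to 58.2%). The share was 132 of 218 (60.6%) where a strand was not known, and 8 of 16 (28.0% to 72.0%) in convergent peaks. Divergent peaks exceeded tandem peaks by 13.7 points (5.86 to 21.4), but at equal width the difference was 3.84 points (-4.31 to 12), an interval that includes 0. Single-gene peaks that hold a gene start met DLX3 in 2824 of 6732 cases (41.9%), and those that hold only a gene finish in 25 of 123 (20.3%). Divergent peaks exceeded the start-holding peaks by 13.1 points (8.8 to 17.3) at equal width. For tandem peaks this difference was 6.19 points (-0.0439 to 12.4), which includes 0. The share of divergent peaks with DLX3 varied with the gap, with intervals that overlapped: it was 61.7% (53.5% to 69.3%) for gaps under 50 bases, 71.2% (62.4% to 78.6%) for gaps from 100 to under 200 bases, 20 of 24 (83.3%, 64.1% to 93.3%) for gaps from 400 to under 800 bases and 9 of 18 (29.0% to 71.0%) for gaps of 800 bases or more.

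Within divergent peaks DLX3 was centred close to the starts and the short gap between them. The centre of the highest-scoring DLX3 peak lay within 250 bp of the midpoint between the starts in 287 of 337 divergent peaks (85.2%, 81.0% to 88.6%). That window took up a mean of 18% of the length of the H3K4me3 peak. The DLX3 peak covered both starts in 287 of 337 (85.2%), and its centre was a median of 84.5 bp from the midpoint and 66 bp from the nearer start. In 128 of 337 (33.0% to 43.3%) the centre lay between the starts. In tandem peaks the centre was nearer the start of the downstream gene than the finish of its neighbour in 93 of 111 cases (83.8%, 75.8% to 89.5%), with a median offset of 0.5 bp from that start along the gene. In single-gene peaks that hold a start the median offset from it was -3.5 bp, and 78.4% of centres lay within 250 bp. DLX3 was thus centred at the start in tandem and start-holding single-gene peaks alike. The H3K4me3 peak was centred a median of 232 bp into the gene in tandem peaks and 382.5 bp in start-holding single-gene peaks. These H3K4me3 medians are over all 215 and 6732 such peaks, with or without DLX3. Over all shared peaks, 222 of 588 DLX3 centres (37.8%, 33.9% to 41.7%) fell in the gap between the genes. Summed over these 588 peaks, the gaps made up 9.5% of the H3K4me3 peak length.

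**Figure D4:**
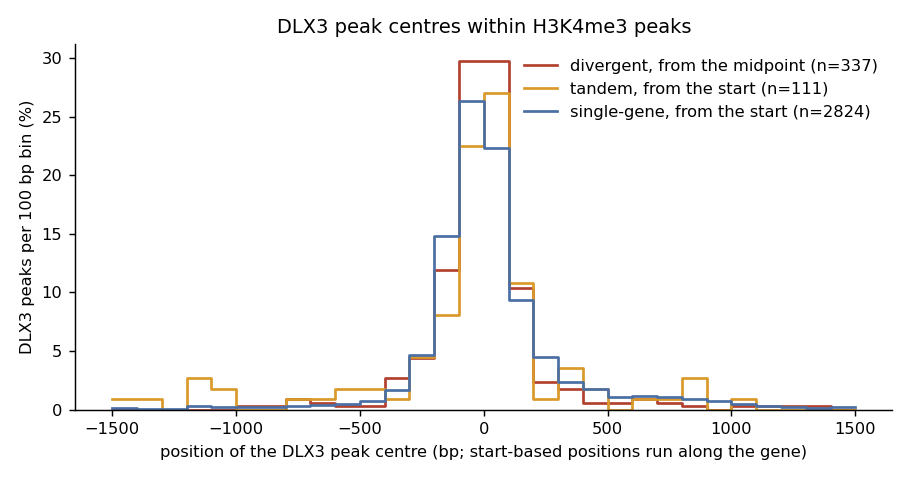
Position of the centre of the highest-scoring DLX3 peak, as the percentage of DLX3 peaks per 100 bp bin, in divergent peaks from the midpoint between the starts (red, n = 337), in tandem peaks from the start along the gene (orange, n = 111) and in single-gene peaks from the start along the gene (blue, n = 2824). The curves rise around 0, where the median offset is 0.5 bp in tandem peaks and -3.5 bp in single-gene peaks.

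The 10 shared peaks with the highest-scoring DLX3 peaks were chosen by that score, which is given as a description. Of these, 7 were divergent and 2 tandem, and in 9 of 10 the DLX3 peak covered both inner gene ends. Jund/Iqcn (chr8:70697954-70702164) had the highest DLX3 score, 571.98, and an H3K4me3 score of 3100. Jund encodes a subunit of the AP-1 transcription factor. The peak covers its finish and the start of Iqcn, 704 bases apart, while the start of Jund lies 215 bp outside, and the top DLX3 peak is centred 2274 bp from the midpoint, inside Jund. Tcta/Rhoa (chr9:108304709-108308855) followed with a DLX3 score of 545.74 and an H3K4me3 score of 3143.22. Rhoa encodes the small GTPase that organises the actin cytoskeleton, and no base lies between the starts of the pair. Ccdc92/Zfp664 (chr5:124861005-124864455) had a DLX3 score of 517.48, with the DLX3 centre 73 bp from the midpoint. These 3 differ in layout, as the gap was 704 bases, 0 bases and 205 bases.

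S100pbp/Yars (chr4:129188215-129191526) combined an H3K4me3 score of 3100 with a DLX3 score of 440.53 over a gap of 68 bases. Polh/Xpo5 (chr17:46201185-46204213) had scores of 3082.95 for H3K4me3 and 354.79 for DLX3, with the DLX3 centre 116 bp from the midpoint. Nsun6/Arl5b (chr2:15054184-15057885) had 2625.08 for H3K4me3 and 369.94 for DLX3, centred 390 bp away on the Arl5b side. Myl12a/Myom1 paired a gene for a myosin regulatory light chain with that of a sarcomere protein of muscle and had a DLX3 score of 431.35. Ccdc47/Ddx42, where Ddx42 encodes a DEAD-box RNA helicase, had 412.35. Zfp473/Vrk3 had 338.53 at an H3K4me3 score of 914.07, the lowest of the 10. The remaining pair, LOC108167694/Gm20783 with a DLX3 score of 509.12, consists of predicted genes without a role given here. Its DLX3 peak was 3207 bp wide, against a median of 705.5 bp for the top DLX3 peaks of shared peaks, and was the widest of them. The centre lay 1003 bp from the midpoint.

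A high H3K4me3 score did not require a DLX3 peak. Among shared peaks without DLX3, 3 scored above 3100 and 10 scored exactly 3100, where many scores of the list stand. The 3 and the widest 2 of the 10 are described. Mau2/Sugp1 (chr8:70041100-70044462, score 3198.16) joins the gene of a cohesin loader to that of a splicing factor over 34 bases. Ankib1/Krit1 (chr5:3801798-3804409, 3169.2) and Mettl6/Eaf1 (chr14:31493618-31496601, 3111.94) have gaps of 31 and 19 bases. Krit1 is known for its role at endothelial junctions, Mettl6 for tRNA methylation and Eaf1 for transcription elongation. Rgs9bp/Ankrd27 had a score of 3100, as had Eme2/Mrps34, the only shared peak with 4 genes. That peak (chr17:24893438-24897847, 4410 bp) holds ends of Eme2, which encodes a partner of a structure-specific DNA endonuclease, of the mitochondrial ribosomal gene Mrps34, of the nucleoside diphosphate kinase gene Nme3 and of the JNK scaffold gene Mapk8ip3. Among the 34 peaks with 3 or more genes, 16 met DLX3 (47.1%, 31.5% to 63.3%), against 572 of 931 peaks with 2 genes (61.4%, 58.3% to 64.5%), and these intervals overlap.

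Of 13 gene pairs known as head-to-head pairs in mammals, 5 were members, 1 lay in a peak above the ceiling and 7 were left out because their spans overlap in RefSeq. The peak of Atm/Npat (chr9:53535659-53538264) scored 3100 and met a DLX3 peak of score 172.83 centred 57 bp from the midpoint. The pair Prkdc/Mcm4 (chr16:15635784-15638778), of the DNA-dependent protein kinase and a subunit of the replicative helicase, had an H3K4me3 score of 1919.91 and a DLX3 score of 74.0. Gart/Son, of purine synthesis and splicing, had an H3K4me3 score of 3100.49 with a DLX3 score of 59.28. For Mrps12/Sars2 (chr7:28740839-28742961) the H3K4me3 score was 1454.29 and the DLX3 score 142.69. Tap1/Psmb9, of antigen peptide transport and the immunoproteasome, scored 1252.63 and met no DLX3 peak. Trp53/Wrap53 lay in a peak of 5010 bp with a DLX3 score of 73.39. The overlapping pairs also had a common peak. Hspd1/Hspe1, the mitochondrial chaperonins, had the highest scores among them, 3100 for H3K4me3 and 203.85 for DLX3. Surf1/Surf2, Col4a1/Col4a2 and Fen1/Tmem258 met no DLX3 peak.

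Gene lists differed in how often their genes lay at shared peaks, against 16.7% of all protein-coding genes with an end in a peak under 4500 bp. The lists were set by gene symbol or by name, and counts are descriptions. Replication-dependent histone genes had the highest share, 27 of 45 (60.0%). Genes of respiratory complex I, the first enzyme of the mitochondrial respiratory chain, followed with 15 of 36 (41.7%), DNA repair genes with 12 of 30 (40%), mitochondrial ribosomal proteins with 24 of 72 (33.3%) and tRNA synthetases with 9 of 32 (28.1%). Cytosolic ribosomal proteins had 17 of 72 (23.6%) and the proteasome 9 of 42 (21.4%). Below the background were solute carriers with 24 of 214 (11.2%), zinc finger genes with 25 of 287 (8.71%) and cell cycle genes with 2 of 28 (7.14%), which were Mcm4 and Pcna. Keratins had 0 of 12. Of 23 genes of the keratinocyte list with an end in such a peak, 1 lay at a shared peak, and 23 of its 60 genes had an end in a peak of 4500 bp or more.

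**Figure D5:**
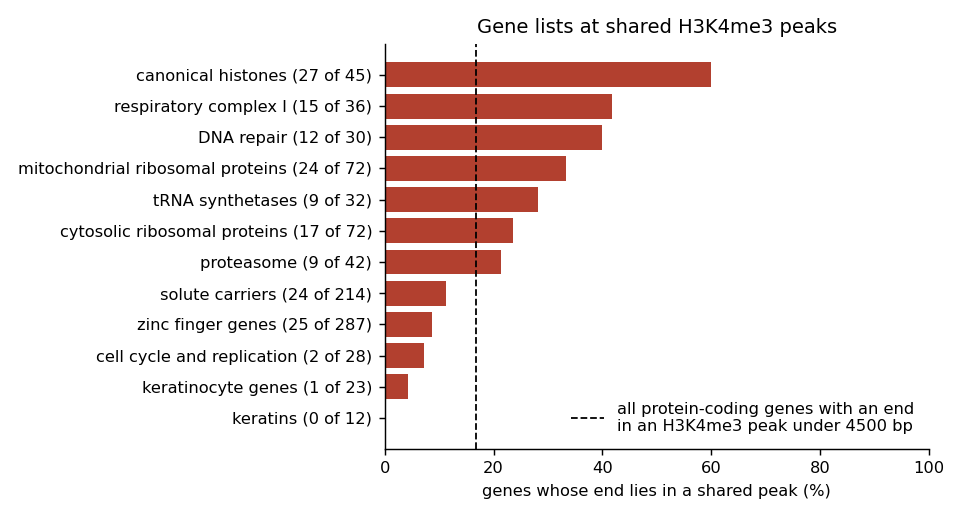
Percentage of the genes of each list with an end in an H3K4me3 peak under 4500 bp whose end lies in a shared peak; the dashed line is the same percentage, 16.7%, over all protein-coding genes. Canonical histones stand at 60.0% and keratins at 0 of 12.

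The mitochondrial ribosomal genes lay at 23 shared peaks, 15 of them divergent, and 17 met DLX3 (73.9%), beside 60.9% of all shared peaks, a difference that was not tested. Mrpl46/Mrps11 (chr7:78781770-78784050) holds 2 genes of the list, 41 bases apart, with an H3K4me3 score of 2036.57 and a DLX3 score of 123.08. Mrpl40/Hira, where Hira encodes a histone chaperone, had scores of 3100 for H3K4me3 and 143.09 for DLX3. Other mitochondrial genes shared a peak with each other across lists: Mrpl47/Ndufb5 had scores of 2175.53 for H3K4me3 and 69.87 for DLX3, and Ndufs6/Mrpl36 of 857.42 for H3K4me3 and 85.61 for DLX3. The 15 peaks of complex I met DLX3 in 8 cases (53.3%), likewise untested against that share, and the highest-scoring of them, Vmac/Ndufa11 at 3027.09, had none. Among proteasome genes, Mrpl32/Psma2 had scores of 1646.55 for H3K4me3 and 145.13 for DLX3.

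DNA repair genes lay at 12 shared peaks and 10 met DLX3 (83.3%), beside 60.9% of all shared peaks, a difference that was not tested. Besides Atm and Prkdc, they included Xpc/Lsm3, of nucleotide excision repair, with scores of 2164.82 for H3K4me3 and 201.2 for DLX3. Lig4/Abhd13, where Lig4 encodes the ligase of DNA end joining, had 1623.12 for H3K4me3 and 192.51 for DLX3. The tRNA synthetase genes met DLX3 at 7 of 10 shared peaks, and the largest DLX3 score among them was that of S100pbp/Yars. At cytosolic ribosomal genes the count was 11 of 19. Rpl9/Lias, where Lias encodes lipoic acid synthase, had scores of 3100 for H3K4me3 and 201.22 for DLX3, with a DLX3 centre 14 bp from the midpoint.

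Histone genes shared their peaks with each other. In all 12 both genes of the closest pair were histone genes, 10 of the peaks lay on chromosome 13 and 2 on chromosome 3, and 6 were divergent. Their H3K4me3 scores had a median of 666.79 and ran from 94.85 at H2ac22/H2bc22 to 2153.93 at H2ac21/H2ac20, against a median of 1699.63 over all shared peaks. DLX3 met 4 of 12 (33.3%), beside 60.9% of all shared peaks, a difference that was not tested. The DLX3 scores were 94.73 at H2ac6/H2bc4, 79.98 at H2ac22/H2bc22, 72.64 at H3c13/H2bc18 and 50.44 at H2ac12/H2bc12, and DLX3 was not called at H2ac11/H2bc11 or H2ac15/H2bc15. Histone genes are near-identical copies, and no source used here states how reads that match several copies were treated, so these scores are uncertain.

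Convergent pairs were rare, and in 7 of 16 the peak also held a gene start. Their DLX3 peaks lay away from the facing finishes: in 7 of 8 the centre was over 500 bp from the midpoint. At Rps21/Cables2, for example, the H3K4me3 score was 1901.3 and the DLX3 peak, of score 82.4, was centred 1277 bp away. Phb2/Ptpn6 was the exception, at 62 bp from the midpoint. Its finishes are 3761 bases apart, so that DLX3 centre was far from both of them as well.

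Promoter sequences ran from 250 bases before to 50 bases after a gene start. They were read at 697 of 965 shared peaks (72.2%) and 6628 of 8768 single-gene peaks (75.6%). Among shared peaks only divergent and tandem pairs were looked up, with a promoter found at 488 of 516 (94.6%) and 209 of 215 (97.2%). The shares of the full groups are under 80%, so a comparison of the full groups is void. The values describe the promoters read, 1 per peak. Over all 516 divergent pairs the gap had a median of 99 bases and an upper quartile of 216.5 bases. Most divergent windows, with 250 bases before the start, therefore also took in the start of the partner gene. Single-gene peaks hold ends of only 1 protein-coding gene, and this difference between the windows was not corrected for. An observed over expected CpG ratio of at least 0.6 was found in 449 of 488 divergent promoters (92.0%, 89.3% to 94.1%), 159 of 209 tandem promoters (76.1%, 69.9% to 81.4%) and 5086 of 6628 single-gene promoters (76.7%, 75.7% to 77.7%), beside 35.8% of all 32841 promoters in the table. CCGGAAG was present in 31.1% of divergent, 29.2% of tandem and 16.7% of single-gene promoters, and in 8.86% of the whole table. GGGCGG was found in 70.7% of divergent, 71.3% of tandem and 70.6% of single-gene promoters, and in 35.7% of the table. CCAAT stood in 44.3% of divergent, 41.6% of tandem and 38.5% of single-gene promoters, beside 37.4% of the table.

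The homeodomain cores were scarce in these windows. TAATTA occurred in 2.05% of divergent, 1.91% of tandem and 2.26% of single-gene promoters, and in 5.29% of the table. TAATTG occurred in 4.71% of divergent, 5.26% of tandem and 4.38% of single-gene promoters, and in 8.0% of the table. In divergent promoters, TAATTA was present in 4 of 320 whose peak met DLX3 (1.25%, 0.487% to 3.17%) and in 6 of 168 whose peak did not (3.57%, 1.65% to 7.57%). GGGCGG was present in 75.3% of divergent promoters with DLX3 and in 61.9% of those without, a difference of 13.4 points (4.8 to 22.1). CCAAT ran the other way, in 40.6% of those with DLX3 and 51.2% of those without, a difference of -10.6 points (-19.7 to -1.29), as did CCGGAAG, in 28.1% of those with DLX3 and 36.9% of those without, a difference of -8.78 points (-17.6 to -0.139). GCGCATGC was present in 8.12% of those with DLX3 and 2.98% of those without, a difference of 5.15 points (0.588 to 9.05). A CpG ratio of at least 0.6 was found in 94.7% of those with DLX3 and 86.9% of those without, a difference of 7.78 points (2.53 to 14.0). For the other 6 motifs the interval of the difference included 0. Intervals are per feature and were not adjusted over the 10 motifs searched, and a match is not a binding site. Peaks with and without DLX3 were not brought to equal H3K4me3 width or score here. The windows were set by gene starts and not by the DLX3 peaks.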

How the data were processed

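Each of the DLX3 and H3K4me3 libraries has 1 deposited peak list, made by the authors per library; the IgG library was not analysed here. The submitters' processing notes name Bowtie 1.1.2, MACS 1.4.2, HOMER and the build mm10, without the settings or what each did, which no source used here states. The deposited score of each peak is the authors', and was compared within a list only. Reads per library are unknown.

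Starts were converted to count from 1. Gene spans came from RefSeq GRCm38.p6, the assembly of mm10 (21900 protein-coding genes). Strand and promoter sequences came from a RefSeq promoter table, which gave a strand for 17492 of them. Overlap with DLX3 required at least 1 bp. Shares carry 95% Wilson intervals and differences Newcombe intervals; differences at equal width were averaged over 10 width classes of the shared peaks (5 classes of the divergent peaks for divergent against tandem), with a normal interval and a Mantel-Haenszel odds ratio. The narrowest and widest width classes had no outer limit. The code was tested on simulated data. Python 3.11.15, pandas 2.3.3, numpy 2.4.6, scipy 1.17.1 and matplotlib 3.10.9 were used.

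Named pairs are the 10 with the highest-scoring DLX3 peaks, the 5 highest-scoring without DLX3 (ties to the wider peak), those with most genes, 13 textbook pairs, keratinocyte genes at a shared peak, up to 5 members of each other list by H3K4me3 score, and the members nearest the width ceiling. Of the lists' leading members only some are named, and the pairs Mrpl46/Mrps11, Ndufs6/Mrpl36, Mrpl32/Psma2 and Lig4/Abhd13, the histone pairs and the convergent pairs beyond this rule were chosen after their values were seen. Members and lists were chosen with earlier results of these data known. The CpG minimum of 0.6, the 2000 bp reach for neighbours, the 250 bp window, the gap classes and the 5 width classes were set after the data were seen, and the ribosomal list was narrowed to drop kinases. Some pairs that the naming rule selects are not reported here. The list of olfactory receptors had 1 gene with an end in a peak under 4500 bp, and 0 at a shared peak.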

Additional observations from a re-analysis of the deposited data

How the results depend on the processing

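No paired analysis was possible because each antibody has 1 library, and no replicate could be left out. The difference in DLX3 share between shared and single-gene peaks was above 0, interval included, under all 12 alternatives run (11.3 to 20.5 points). Averaged over classes of width, of score or of both, it was also above 0 under all 13 (8.0 to 12.9 points). With a ceiling of 3000 bp, the DLX3 share of shared peaks was 54.6% and the divergent share of gene pairs 65.5%. With H3K4me3 peaks at or above the median score, the DLX3 share was 67.3%, the difference 11.3 points and the divergent share 75.5%. With DLX3 peaks at or above the median score, the share was 38.1%, the difference 14.1 points and the difference at equal width 8.04 points. Classes of H3K4me3 score in place of width gave 8.0 points. The difference between divergent and tandem peaks, averaged over width classes, was 3.84 points. With 250 bases before the start alone, GGGCGG stood in 65.6% and CCGGAAG in 24.8% of divergent promoters. The number of shared peaks stayed within 646 to 1047 under 5 alternatives. The causes of these shifts were not tested. Start-holding single-gene peaks, chromosome X left out and the alternatives for orientation were added after the data were seen. Classes by CpG content were void as a check of the DLX3 difference. Promoters were read at 72.2% of shared peaks, where only divergent and tandem pairs were looked up. They were read at 75.6% of single-gene peaks, so both shares were under 80%. Without replicates or read counts, the spread between libraries is not known, and a peak missing from a list may lie below the calling threshold.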
